A study of Mus musculus with 12 samples.

Results

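The transporters of amino acids, small peptides and related solutes were examined in duodenum and liver of mice treated with corticosterone (CORT). The set holds every gene of the tables whose name starts with Slc1a, Slc3a, Slc6a, Slc7a, Slc15a, Slc36a, Slc38a or Slc43a followed by a number, with names marked as pseudogenes left out (0 were found). This rule uses names only and gave 72 of 55416 genes. By family there were 22 Slc6a, 16 Slc7a, 11 Slc38a, 7 Slc1a, 6 Slc36a, 5 Slc15a, 3 Slc43a and 2 Slc3a genes. 4 of the 72 names end in os, which marks a gene on the strand opposite a transporter gene, so 68 name transporters themselves.

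Dietary protein reaches the blood as amino acids and short peptides. In the small intestine, carriers of the brush border take them up with sodium, with protons or by exchange, and carriers of the basolateral membrane let them out towards the portal blood. Several of the exchangers are heterodimers of an Slc7 light chain and an Slc3 heavy chain. Hepatocytes then take up glutamine, alanine, glycine and other amino acids for gluconeogenesis, urea and protein synthesis, largely through the Slc38 family (systems A and N). The Slc6 family also holds carriers of taurine, creatine, betaine, GABA and monoamines. Glucocorticoids are known to change amino acid handling in both organs.

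The samples came from male C57BL6/J mice aged 8 weeks when treatment began. Each mouse was injected subcutaneously once a day over 8 weeks, with CORT (40 mg/kg) or with vehicle (Veh). CORT is the chief glucocorticoid in rodents, and the mice carried no engineered allele. For each tissue, 3 Veh and 3 CORT libraries were made from whole frozen tissue (50 mg per sample), 12 in all. The labels call one tissue intestine and the study's methods call it duodenum, and the labels number the samples of each group as biological replicates 1 to 3. Below, Veh1 to Veh3 and CORT1 to CORT3 are these libraries, and values of a group are given in that order.

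The deposited values are TPM, relative transcript levels per transcript length, scaled within each library. The read depth behind a value is unknown, no counting error can be given, and a value of 0 means only that the gene is listed at 0. Differences between groups are given as log2 fold changes of TPM + 1, which makes the changes of low genes look smaller than they are, with the standard error (SE) and the Benjamini-Hochberg adjusted p of limma over all genes tested. A gene was tested when its mean reached 1 TPM in any group of the fit, and was a differentially expressed gene (DEG) at an adjusted p of 0.05 or less with a fold change over 1.5. An exact two-sided permutation test on 1 gene, with 3 libraries against 3, has 0.1 as its smallest p. In whole tissue, fewer cells of a type and less RNA per cell cannot be told apart.

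Both tissues matched their labels. The brush border genes Slc15a1, Slc7a9 and Slc6a19 summed to between 337.5 and 680.9 TPM in duodenum and to at most 0.03 TPM in liver, and 8 hepatocyte markers summed to between 67900 and 96950 TPM in liver and at most 445.6 TPM in duodenum. Fkbp5, a direct target of the glucocorticoid receptor, rose from a mean of 15.3 to 303.9 TPM in duodenum and from 13.1 to 247.7 TPM in liver. Duodenum Veh2 and Veh3 stood apart: a list of 32 pancreatic acinar genes took 3.94% and 3.19% of their TPM, against 0.0261% in Veh1 and 0.0269 to 0.0444% in the CORT libraries. By limma no acinar gene was among the DEGs (0 of 29 tested, with 24 at an unadjusted p under 0.05 and a median log2 fold change of -5.41). The 14 enterocyte markers summed to 49680, 34980 and 35550 TPM in Veh and to 68340, 59790 and 63790 TPM in CORT duodenum, and the 6 leukocyte markers to 2022, 1928 and 3029 TPM against 1085, 1467 and 926.4 TPM. The groups did not overlap in either sum, while the sums of the 6 crypt and 6 smooth muscle markers overlapped. The log2 fold change was below 0 in all 6 smooth muscle markers and in 4 of 6 crypt markers. It was also below 0 in all 6 leukocyte markers, though only -0.0002 in Ptprc. Most of the enterocyte sum came from Apoa4, Fabp1, Fabp2 and Rbp2, which handle lipid and retinol. The other 10 markers summed to between 8725 and 9525 TPM in Veh and between 8247 and 10930 TPM in CORT, with overlap, and of the 14 markers 10 had a log2 fold change above 0 and 4 below 0. Most of the leukocyte sum came from Cd74 and Jchain, and the other 4 markers overlapped. By limma none of these 4 lists held a DEG in duodenum, with 5 of 14 enterocyte, 2 of 6 leukocyte, 0 of 6 crypt and 3 of 6 smooth muscle markers at an unadjusted p under 0.05. Their part in the results below was not tested.

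All 72 genes together took 0.17 to 0.283% of TPM in the duodenum libraries and 0.141 to 0.229% in the liver libraries. 3 genes (Slc6a2, Slc7a12 and Slc7a13) were listed at 0 in all 12 libraries, and 46 reached a mean of 1 TPM in some group, with 36 in Veh duodenum and 30 in Veh liver. The remaining 26 genes, among them the GABA carrier Slc6a11, the cystine-glutamate exchanger Slc7a11 and the broad carrier Slc6a14, were below this limit in every group and were not tested.

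The first comparison asked how the 2 tissues differ in these genes without CORT. Of the 46 genes tested, 39 were DEGs between Veh liver and Veh duodenum, 10 higher and 29 lower in liver, where 65.6% of all 14806 genes tested were DEGs. The median log2 difference (liver minus duodenum) was -1.11 over the 46 genes and -0.68 over all genes tested. Both values depend on the scaling. With each library divided by its median ratio to a reference made of all libraries (median-ratio scaling), the median of all genes was -0.065. Of the 46 genes, 13 were then higher and 23 lower in liver, and their median was not computed with that scaling. The 8 largest differences in each direction, all of which are named below, kept their direction and their DEG call in all 18 alternative fits. The plot of Veh levels shows the genes near its 2 axes.

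**Figure D1:**
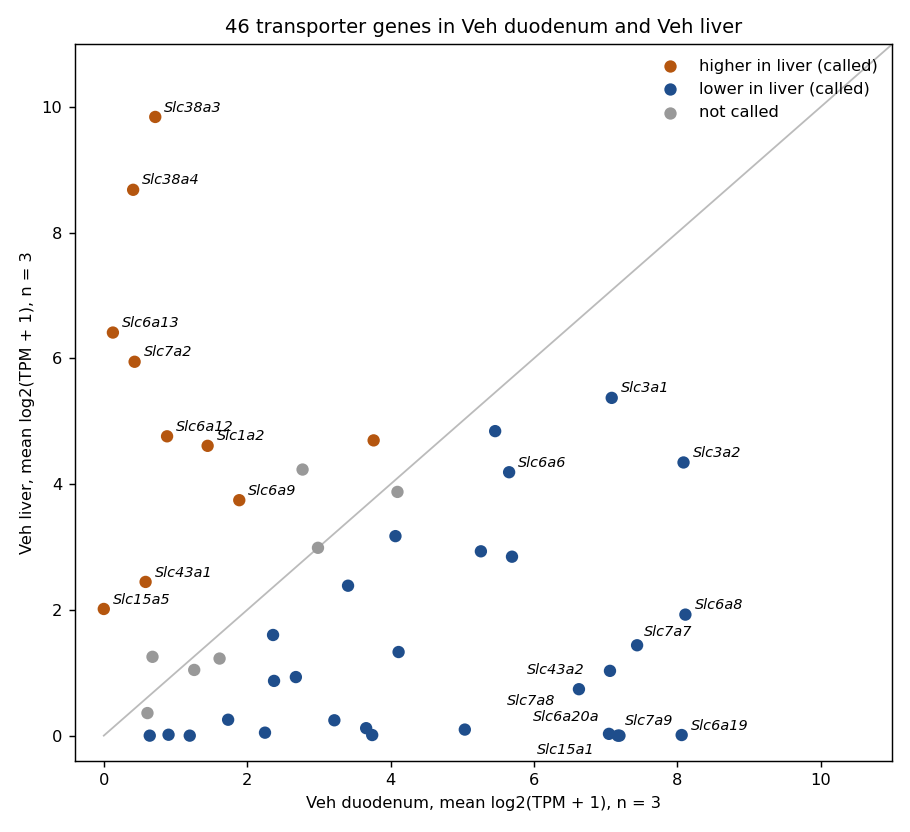
Mean log2(TPM + 1) of the 46 tested genes in Veh duodenum (horizontal) and Veh liver (vertical), n = 3 libraries each; the line marks equal levels, and colours mark genes that were DEGs in either direction. Slc38a3 and Slc38a4 lie far above the line, and Slc6a19, Slc6a20a, Slc7a9 and Slc15a1 lie on the floor of the liver axis.

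Several genes of brush border uptake were high in duodenum. Slc6a19 (B0AT1, the brush border carrier of neutral amino acids) was at 339, 209 and 266 TPM in Veh duodenum, and at 0, 0 and 0.02 TPM in Veh liver. Slc15a1 (PepT1, the proton-driven carrier of di- and tripeptides) was at 191, 106 and 112 TPM against 0.03, 0.03 and 0 TPM. Slc7a9 (b0,+AT, which takes up cystine and cationic amino acids) was at 151, 144 and 134 TPM, and Slc6a20a (SIT1, which takes up proline) at 161, 123 and 155 TPM. Both were listed at 0 in all 6 liver libraries, so no fold is given. The log2 difference was -8.05 (SE 0.21, adjusted p = 2.79e-11, limma) for Slc6a19 and -7.02 (SE 0.23, adjusted p = 1.98e-10) for Slc15a1. Slc6a20b is a close copy of Slc6a20a, and reads shared by both may have been split between them; it was at 3.14, 0.67 and 0.75 TPM.

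The genes of exit from the enterocyte were also high. Slc7a7 (y+LAT1, which lets cationic amino acids out in exchange) was at 251, 139 and 147 TPM in Veh duodenum and at 0.91, 3 and 1.6 TPM in Veh liver. Slc7a8 (LAT2, an exchanger of neutral amino acids) was at 154, 67.2 and 90.2 TPM against 0.52, 0.91 and 0.6 TPM. Slc43a2 (LAT4, a facilitative carrier of neutral amino acids) was at 216, 106 and 102 TPM against 0.63, 1.6 and 1.01 TPM. In all of these, duodenum Veh1 was well above the other Veh libraries. The log2 differences were -6.00 (SE 0.346) for Slc7a7, -5.89 (SE 0.299) for Slc7a8 and -6.03 (SE 0.315) for Slc43a2. Slc6a8, the creatine carrier, was at 349, 245 and 245 TPM in Veh duodenum and at 2.23, 3.72 and 2.59 TPM in Veh liver, a log2 difference of -6.19 (SE 0.235).

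The heavy chains were higher in duodenum as well. Slc3a2 (4F2hc, the partner of Slc7a7 and Slc7a8) was at 383, 207 and 250.2 TPM in Veh duodenum and at 19.6, 20 and 18.4 TPM in Veh liver. Slc3a1 (rBAT, the partner of Slc7a9) was at 185, 120.2 and 110.2 TPM in Veh duodenum and at 39.2, 57.4 and 29.2 TPM in Veh liver, where Slc7a9 was listed at 0. Its log2 difference was -1.71 (SE 0.458, adjusted p = 0.00546, limma), and it was not a DEG with the other scaling. All 6 light chains tested were lower in liver under both scalings.

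Liver levels were led by system N and system A. Slc38a3 (SNAT3, which carries glutamine, histidine and asparagine) was at 692, 1254 and 884 TPM in Veh liver and at 0, 1.27 and 0.96 TPM in Veh duodenum. The 2 Veh duodenum libraries above 0 are those with the high acinar share. Slc38a4 (SNAT4, a system A carrier of liver) was at 338, 516 and 394 TPM against 0.14, 0.37 and 0.5 TPM. The log2 differences were 9.12 (SE 0.286, adjusted p = 1.31e-10, limma) and 8.27 (SE 0.172, adjusted p = 4.48e-12). These 2 genes were far above the third, Slc6a13.

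Behind them came carriers of GABA, taurine, betaine, arginine and glutamate. Slc6a13 (GAT2) was at 77.7, 102 and 75.1 TPM in Veh liver and at most 0.16 TPM in Veh duodenum, with a log2 difference of 6.28. Slc7a2 (CAT2, a carrier of cationic amino acids) was at 38.8, 99.8 and 57.5 TPM against at most 0.43 TPM, with a difference of 5.52. Slc6a12 (BGT1, which carries betaine) was at 25.2, 25.4 and 27.7 TPM against 0.48, 0.54 and 1.75 TPM, a difference of 3.88. The narrow spread of Slc6a12 in liver, with an SD of 1.38 TPM around a mean of 26.1 TPM, contrasts with the SD of 31.3 TPM around a mean of 65.3 TPM for Slc7a2. Slc1a2 (EAAT2, a glutamate carrier) was at 27.8, 15.2 and 30.2 TPM in Veh liver and at 0.36, 10.2 and 0.34 TPM in Veh duodenum, a difference of 3.16. Slc43a1 (LAT3), with 2.91, 4.51 and 6.49 TPM against 0.21, 0.47 and 0.89 TPM, differed by 1.86. The orphan Slc15a5 was at 4.04, 1.47 and 4.3 TPM in Veh liver and listed at 0 in all Veh duodenum libraries.

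In duodenum under CORT, 3 of the 39 genes tested were DEGs, where 2.15% of all 13607 genes tested were DEGs. The dopamine carrier Slc6a3 and the taurine carrier Slc6a6 rose, and the glutamate carrier Slc1a1 fell. Of the 39 genes, 34 passed the filter of 1 TPM in both groups. Another 2 (Slc1a2 and Slc38a5) passed through Veh alone, and 3 (Slc15a2, Slc6a3 and Slc7a2) through CORT alone. Of the 39 genes, 18 had a log2 fold change above 0 and 21 below 0, with a median of -0.04 against -0.01 over all genes tested. Veh and CORT libraries were without overlap in 12 of the 39 genes (5 with all CORT values higher, 7 with all lower), and in 26.4% of all genes tested. The 3 calls rest on the full set of 6 libraries. With 1 library left out at a time the number of DEGs among the members was 0 or 1, as set out for each gene below.

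Slc6a6 (ENSMUSG00000030096), the sodium- and chloride-driven taurine carrier, was at 48.9, 43.4 and 56.6 TPM in Veh and at 91.6, 79.4 and 89.4 TPM in CORT duodenum. The groups were well apart, and the highest Veh value lay below the lowest CORT value. The log2 fold change was 0.80 (SE 0.14, adjusted p = 0.0413, limma). Its size held between 0.71 and 0.90 with each library left out, but the gene was a DEG in none of these 6 fits, and its adjusted p ranged from 0.0392 to 0.307 over all 14 alternatives.

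Slc1a1 (ENSMUSG00000024935) encodes EAAT3, a sodium-driven carrier of glutamate and aspartate. It was at 14.5, 11.7 and 11.2 TPM in Veh and at 5.7, 4.63 and 6.92 TPM in CORT duodenum, and every CORT value was below every Veh value. The log2 fold change was -1.0 (SE 0.172, adjusted p = 0.0392, limma), between -1.13 and -0.88 with each library left out. It was a DEG in none of those 6 fits and in 4 of all 14 alternatives, with adjusted p between 0.00404 and 0.308.

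Slc6a3 (ENSMUSG00000021609), the dopamine carrier, was low throughout. It was at 1.28, 0.26 and 0.32 TPM in Veh and at 3.75, 4.87 and 4.43 TPM in CORT duodenum, and it was listed at 0 in all 6 liver libraries. All CORT values were above all Veh values, with Veh1, the Veh library with a low acinar share, nearest to them. The log2 fold change was 1.77 (SE 0.264, adjusted p = 0.0282, limma). The gene passed the filter through the CORT group alone, and with no filter on low values it was not a DEG (adjusted p = 0.0847, limma). Its fold change stayed between log2 values of 1.62 and 2.05 with each library left out, where the gene was a DEG only without Veh1, and was 1.23 when both Veh2 and Veh3 were left out (adjusted p = 0.251, range over 14 alternatives 0.00121 to 0.251).

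**Figure D2:**
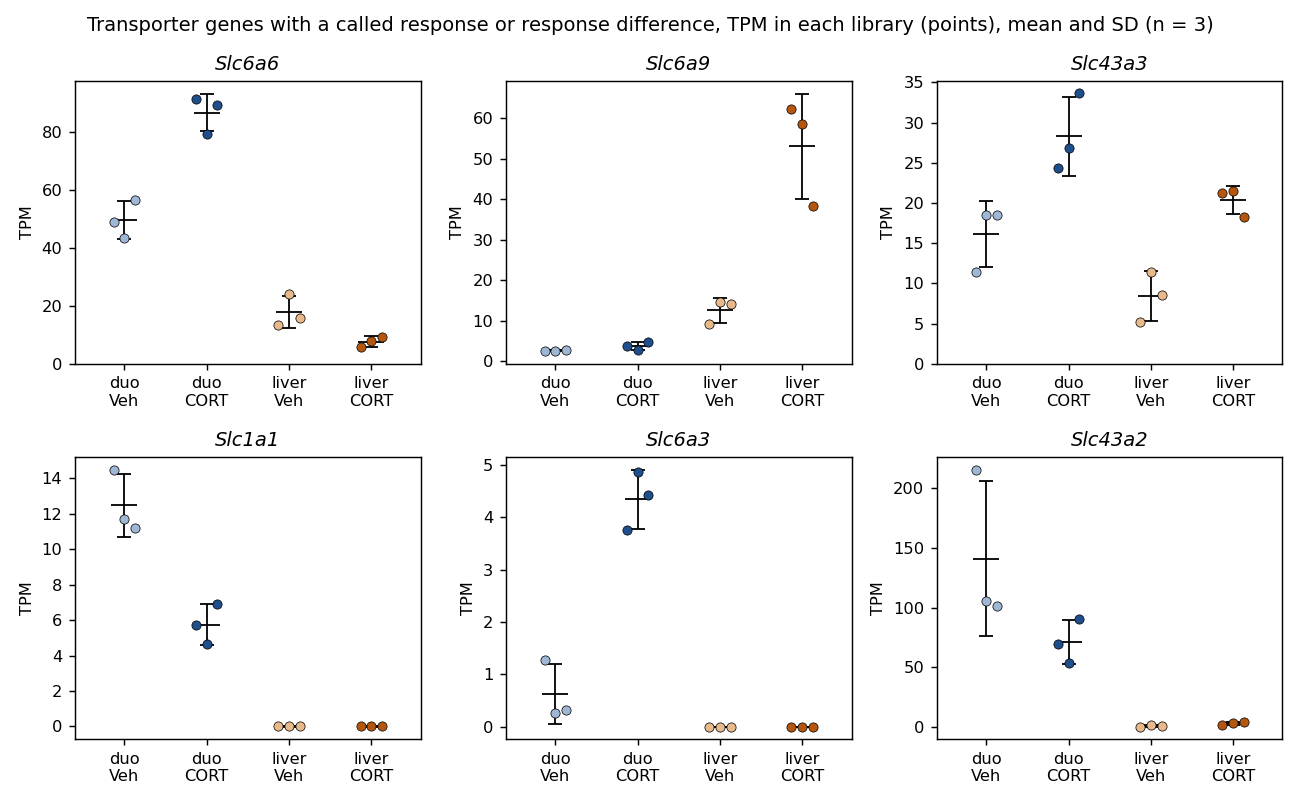
TPM of 6 genes in each library of duodenum (duo, blue) and liver (orange), with the mean and SD of 3 libraries per group. Slc6a6 is higher in CORT than Veh duodenum and lower in CORT than Veh liver, Slc6a9 stands out in CORT liver, and Slc1a1 and Slc6a3 are at or near 0 in liver.

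The windows just before the transcription start are shown for the DEGs that had one in the RefSeq promoter set, since the glucocorticoid receptor acts by binding DNA and short motifs can be read there. RefSeq windows (GRCm38.p6, while the tables were made on GRCm39) matched 53 of the 72 genes with 74 windows, of which the 250 bases before each start were searched on both strands. Any member windows on 1 chromosome were left out of these counts, while the shares over all windows below include that chromosome. Of the 5 genes that were DEGs in duodenum or liver, 3 had windows (5 in all), and Slc6a6 and Slc43a3 had none. Slc6a9, described below with the liver, has 3 annotated starts, and the first by position is shown. Capitals mark a motif found. All 3 are on the plus strand, at chr19:28834885-28835134 for Slc1a1, chr13:73536497-73536746 for Slc6a3 and chr4:117835008-117835257 for Slc6a9.
Slc1a1: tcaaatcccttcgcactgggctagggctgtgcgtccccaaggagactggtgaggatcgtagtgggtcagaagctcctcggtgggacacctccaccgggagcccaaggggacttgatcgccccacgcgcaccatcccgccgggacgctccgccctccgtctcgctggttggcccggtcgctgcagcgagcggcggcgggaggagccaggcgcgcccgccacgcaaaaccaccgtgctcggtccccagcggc
Slc6a3: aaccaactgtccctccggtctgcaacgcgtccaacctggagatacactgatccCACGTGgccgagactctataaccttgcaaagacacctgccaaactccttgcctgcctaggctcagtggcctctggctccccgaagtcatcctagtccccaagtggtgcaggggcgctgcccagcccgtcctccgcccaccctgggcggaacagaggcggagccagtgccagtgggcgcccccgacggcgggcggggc
Slc6a9: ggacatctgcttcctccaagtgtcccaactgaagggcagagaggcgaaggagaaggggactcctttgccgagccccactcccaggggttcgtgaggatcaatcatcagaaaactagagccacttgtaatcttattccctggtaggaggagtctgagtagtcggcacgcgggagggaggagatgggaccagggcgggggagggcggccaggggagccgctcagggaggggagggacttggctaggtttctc
Slc6a3 held 1 E-box (CACGTG, the site bound by helix-loop-helix factors), which starts at -197 from the transcription start. No other motif searched was found in the 5 windows, the glucocorticoid receptor half-site AGAACA included. Over all 74 member windows AGAACA was found in 10, where 16.1% of all 32851 RefSeq windows held it. The amino acid response core TGATGNAA was found in 4 (3.45% of all windows), CACGTG in 9 (6.02% of all) and TATAAA in 6 (12.4% of all). A match is a run of letters and not a site shown to be bound.

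The 3 genes that mark intestinal absorption were not DEGs in duodenum. Slc15a1 was at 191, 106 and 112 TPM in Veh and at 85.4, 80.2 and 133 TPM in CORT duodenum, and the groups overlapped. Slc6a19 was at 339, 209 and 266 TPM in Veh and at 281, 172 and 292 TPM in CORT, again with overlap. Slc7a9 was at 151, 144 and 134 TPM in Veh and at 121, 85.6 and 112 TPM in CORT, with every CORT value below every Veh value. Their log2 fold changes were -0.43 (SE 0.286, adjusted p = 0.452, limma), -0.14 (SE 0.262, adjusted p = 0.804) and -0.44 (SE 0.158, adjusted p = 0.196). The value of Slc6a19 turned to 0.04 without Veh1 and to 0.11 without CORT2.

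Larger differences that did not pass the threshold were found in other carriers of neutral amino acids. Slc6a20a was at 54.2, 47.2 and 101 TPM in CORT duodenum, below all 3 Veh values, with a log2 fold change of -1.18 (SE 0.286, adjusted p = 0.0909, limma). It became a DEG without CORT3 (-1.50), the library with the highest of the CORT values, and in the fit of all 12 libraries, and its adjusted p ranged from 0.0151 to 0.476 over the 14 alternatives. Slc36a1 (PAT1, a proton-coupled carrier of small neutral amino acids) was at 76.2, 22.4 and 30.1 TPM in Veh and at 10.6, 9.67 and 22.4 TPM in CORT. Its log2 fold change was -1.43 (SE 0.488, adjusted p = 0.183), and Veh1 weighed on it: without that library the value was -0.92. Slc43a2 was at 69.8, 53.9 and 90.4 TPM in CORT duodenum, with a log2 fold change of -0.91 (SE 0.326, adjusted p = 0.194) that was -0.56 without Veh1. No CORT value of these 3 genes exceeded the lowest Veh value.

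Of the carriers of cationic amino acids, Slc7a1 (CAT1) was at 12.5, 10.5 and 12 TPM in Veh and at 6.47, 5.93 and 9.58 TPM in CORT duodenum, a log2 fold change of -0.63 (SE 0.185, adjusted p = 0.142, limma). Slc7a2 (CAT2) was low, at 0.23, 0.43 and 0.39 TPM in Veh and at 1.24, 1.17 and 1.15 TPM in CORT, a log2 fold change of 0.70 (SE 0.197, adjusted p = 0.129). The groups were apart in both genes, in opposite directions. Slc7a2 passed the filter through the CORT group alone, so the filter favoured a rise of this gene. Slc43a3, a member of the Slc43 family that carries purine bases, was at 11.4, 18.5 and 18.5 TPM in Veh and at 24.3, 26.8 and 33.8 TPM in CORT, a log2 fold change of 0.79 (SE 0.221, adjusted p = 0.126).

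Single libraries decided several values. Slc38a5 (SNAT5, a glutamine carrier) was at 0.07, 1.58 and 1.37 TPM in Veh and at 0, 0 and 0.06 TPM in CORT duodenum, so that it was above 1 TPM only in the 2 libraries with the high acinar share. Its log2 fold change of -0.88 (adjusted p = 0.263, limma) was -0.15 with the acinar level in the model as a covariate. Slc1a2 was at 10.2 TPM in Veh2 and between 0.34 and 1.17 TPM in the other 5 duodenum libraries, and its value of -0.70 turned to 0.27 with that covariate. Slc15a4 (PHT1, an endolysosomal carrier of peptides and histidine) was at 39.2 TPM in CORT2 and between 3.53 and 10 TPM elsewhere, and its value of 0.64 turned to -0.32 without CORT2.

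The heavy chains and the basolateral exchangers overlapped between groups. In CORT duodenum Slc3a2 was at 327, 227 and 376 TPM, and Slc3a1 was at 125, 112 and 134 TPM. Slc7a7 was at 161, 135 and 217 TPM and Slc7a8 at 119, 80.7 and 154 TPM. The log2 fold changes of these 4 genes were 0.16, -0.13, -0.04 and 0.22, with adjusted p between 0.761 and 0.955. None of the 6 light chains, 3 cationic carriers, 4 peptide carriers or 7 Slc38 genes tested in duodenum was a DEG. Among the Slc1 genes the log2 fold change was below 0 in 5 of 5, from -0.08 in Slc1a5 to -1.0 in Slc1a1, the only DEG. Slc1a2, which is among the 5, passed the filter through Veh alone and turned to 0.27 with the acinar covariate. In the plot of absorptive genes Veh1 was the highest Veh library, but by little in Slc6a20a and Slc7a9. These 2 genes were at 161, 123 and 155 TPM and at 151, 144 and 134 TPM in Veh.

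**Figure D3:**
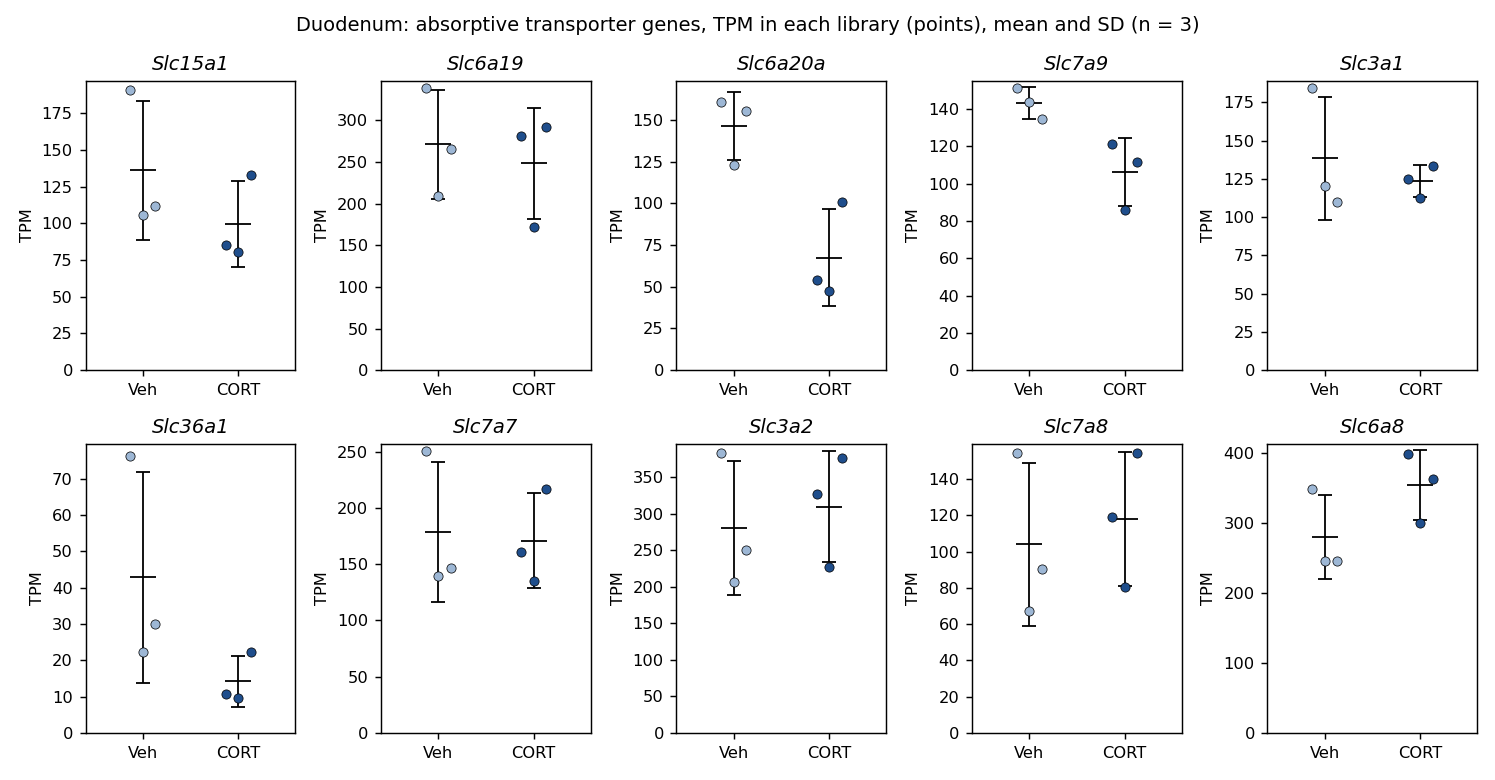
TPM of 10 genes of uptake and exit in each duodenum library, with the mean and SD of 3 libraries per group. The Veh and CORT points overlap in 7 genes and do not in Slc6a20a, Slc7a9 and Slc36a1; none of the 10 was a DEG.

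In liver under CORT, 3 of the 30 genes tested were DEGs, where 6.92% of all 11699 genes tested were DEGs. The glycine carrier Slc6a9 and the purine base carrier Slc43a3 rose, and the taurine carrier Slc6a6 fell. Of the 30 genes, 21 had a log2 fold change above 0 and 9 below 0, with a median of 0.14 against 0.08 over all genes tested. The groups did not overlap in 9 of the 30 genes (5 with all CORT values higher, 4 with all lower), and in 32.2% of all genes tested. Slc6a9 alone was a DEG with each of the 6 libraries left out.

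Slc6a9 (ENSMUSG00000028542) encodes GlyT1, a sodium- and chloride-driven glycine carrier. It was at 9.11, 14.6 and 14.3 TPM in Veh and at 62.2, 58.6 and 38.2 TPM in CORT liver, so that the lowest CORT value was above every Veh value. The log2 fold change was 1.98 (SE 0.248, adjusted p = 0.00774, limma). It was a DEG in all 11 alternatives, with a log2 fold change between 1.78 and 2.20 and an adjusted p between 0.000406 and 0.0379. In duodenum the gene was at 2.61, 2.68 and 2.83 TPM in Veh and at 3.69, 2.74 and 4.84 TPM in CORT, with a log2 fold change of 0.34 (SE 0.192, adjusted p = 0.389).

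Slc43a3 (ENSMUSG00000027074) was at 5.18, 11.4 and 8.55 TPM in Veh and at 21.2, 21.5 and 18.3 TPM in CORT liver, without overlap. The log2 fold change was 1.24 (SE 0.251, adjusted p = 0.0346, limma). With single libraries left out it lay between 0.97 and 1.47 and the gene was a DEG only without Veh2, the highest of the Veh libraries. Its adjusted p ranged from 0.0114 to 0.113 over the 11 alternatives.

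Slc6a6 was at 13.5, 24 and 15.8 TPM in Veh and at 5.74, 7.84 and 9.3 TPM in CORT liver, and every CORT value was below every Veh value. The log2 fold change was -1.10 (SE 0.247, adjusted p = 0.0449, limma), between -1.27 and -0.88 with each library left out. It was a DEG in none of those 6 fits and in 3 of all 11 alternatives, with adjusted p between 0.00803 and 0.136.

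The main glutamine carrier of the liver did not pass the threshold. Slc38a3 was at 692, 1254 and 884 TPM in Veh and at 466, 573 and 591 TPM in CORT liver, with no overlap and a log2 fold change of -0.76 (SE 0.232, adjusted p = 0.0966, limma). Slc38a4 was at 338, 516 and 394 TPM in Veh and at 455, 426 and 478 TPM in CORT, a log2 fold change of 0.14. Slc36a1 was at 7.36, 7.35 and 5.36 TPM in Veh and at 2.66, 4.04 and 4.07 TPM in CORT, a log2 fold change of -0.75 (SE 0.192, adjusted p = 0.0636), without overlap. Slc43a2 was at 0.63, 1.6 and 1.01 TPM in Veh and at 2.27, 3.45 and 4.48 TPM in CORT, a log2 fold change of 1.08 (SE 0.263, adjusted p = 0.057). With the median-ratio scaling these last 2 genes and Slc38a3 were DEGs as well, with the same directions.

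Slc1a2, the glutamate carrier, was at 27.8, 15.2 and 30.2 TPM in Veh and at 43.9, 49.4 and 74.2 TPM in CORT liver. The groups did not overlap, and the log2 fold change of 1.18 (SE 0.3, adjusted p = 0.062, limma) missed the threshold. The 7 pericentral markers, genes of the hepatocytes around the central vein, summed to 4794, 2994 and 4898 TPM in Veh and to 7166, 8246 and 5289 TPM in CORT liver, also without overlap, while the 6 periportal markers overlapped. Most of the pericentral sum came from Cyp2e1, the other 6 markers overlapped between the groups, and of the 7 markers 4 had a log2 fold change above 0 and 3 below 0. By limma none of either list was a DEG, with 3 genes of each at an unadjusted p under 0.05, and their part in the values of Slc1a2 was not tested.

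Slc3a1 was at 43.6, 52.1 and 187 TPM in CORT liver, with CORT3 far above the others, and the log2 fold change of 0.88 (SE 0.544, adjusted p = 0.355, limma) was 0.23 without it. Slc3a2 was at 22.2, 25.5 and 30.8 TPM in CORT liver, above all Veh values, with a log2 fold change of 0.41 (SE 0.147, adjusted p = 0.143). Slc38a2 (SNAT2, a system A carrier) was at 17.8, 26.5 and 32.6 TPM in Veh and at 45.7, 22.4 and 41 TPM in CORT, with overlap and a log2 fold change of 0.47. Slc15a5 and Slc38a6 also overlapped, with log2 fold changes of 0.48 and 0.31. The liver carriers Slc6a13, Slc7a2 and Slc6a12 had log2 fold changes of 0.15, 0.02 and -0.03, with adjusted p between 0.615 and 0.981.

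**Figure D4:**
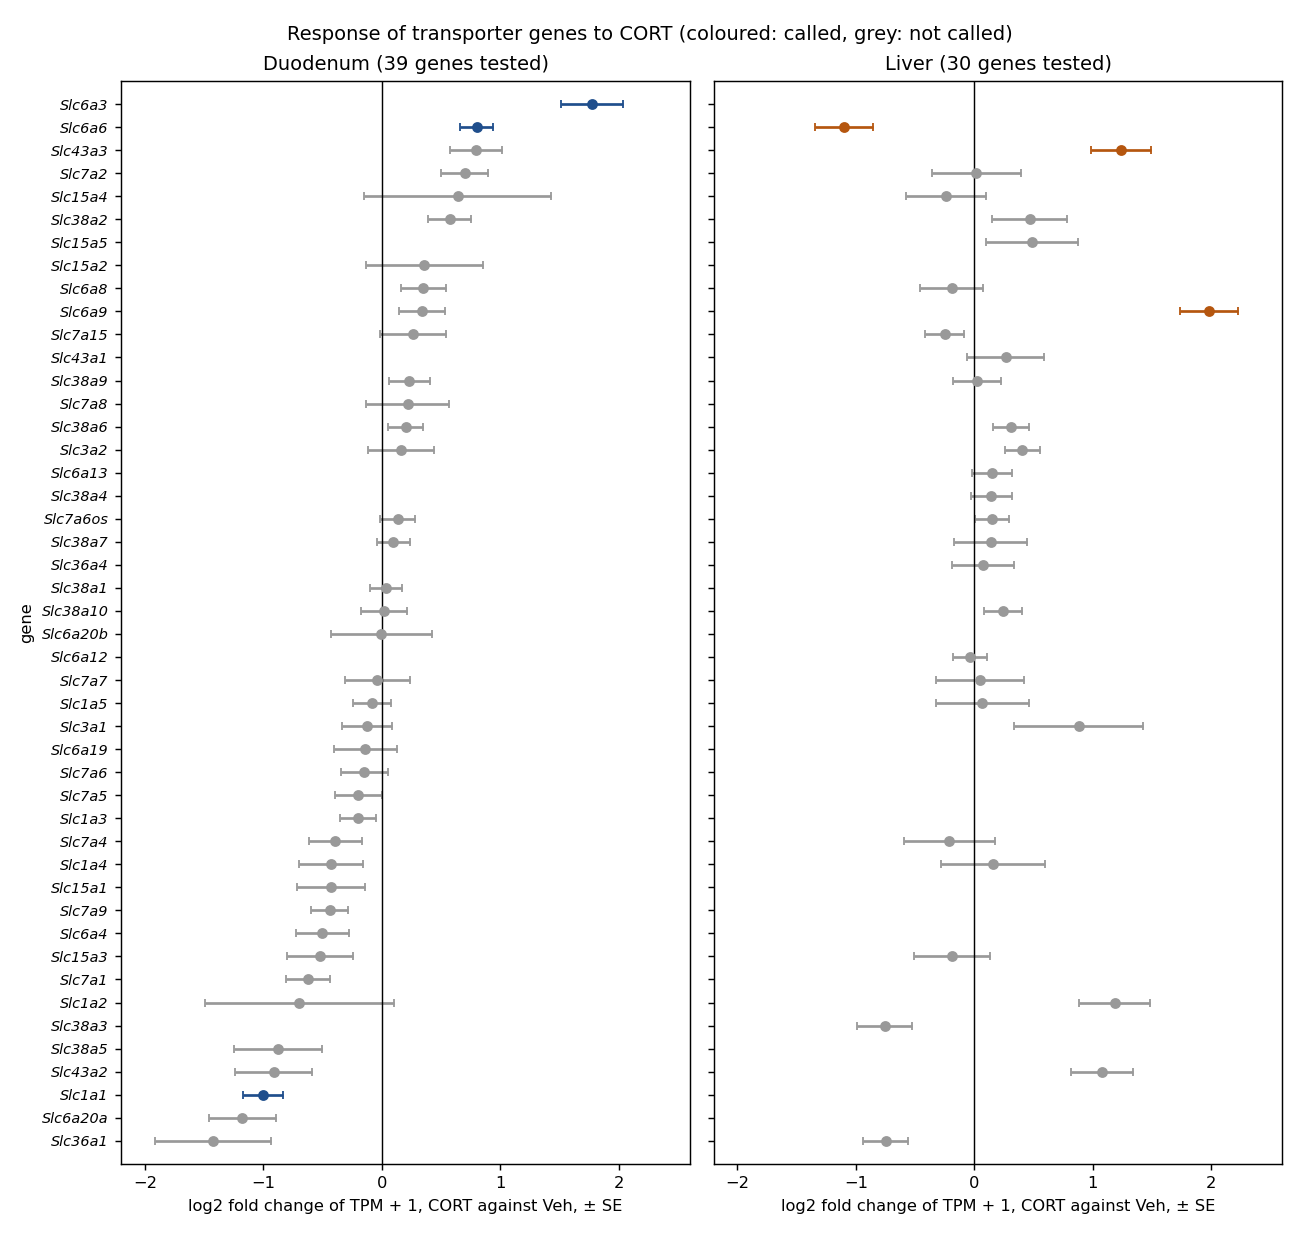
Log2 fold change of TPM + 1 (CORT against Veh) with its SE in duodenum (39 genes) and liver (30 genes), ordered by the duodenum value where there is one; coloured points are DEGs. Slc6a6 lies on opposite sides of 0 in the 2 tissues, while Slc43a3 lies above 0 in both.

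Whether the response to CORT differed between the tissues was tested in one fit of all 12 libraries, as the liver log2 fold change minus that of duodenum. Of the 46 genes tested, 5 differed, where 3.6% of all 14806 genes tested did. For Slc6a6 the difference was -1.90 (SE 0.298, adjusted p = 0.00672, limma), and it held in all 17 alternatives. For Slc6a9 it was 1.64 (SE 0.325, adjusted p = 0.0208) and held in 14 of 17. For Slc43a2, with all CORT values above all Veh values in liver and below them in duodenum, it was 1.99 (SE 0.445, adjusted p = 0.0355) and held in 9 of 17, though its response was not a DEG in either tissue alone. Slc6a3 (-1.77, SE 0.301, adjusted p = 0.00997) and Slc1a1 (1.01, SE 0.212, adjusted p = 0.0274) also differed, the first in 16 and the second in 8 of 17 alternatives. For Slc1a1 the call held in 5 of the 12 fits with 1 library left out, with adjusted p between 0.0205 and 0.133 over the alternatives. These 2 genes were at 0.03 TPM or less in every liver library, so their differences restate the duodenum response. For Slc43a3 the difference was 0.45 (SE 0.36, adjusted p = 0.562).

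Of the 4 genes named for the opposite strand, only Slc7a6os passed the filter. It was at 18.1, 14.9 and 15.5 TPM in Veh and at 19.4, 19 and 15.1 TPM in CORT duodenum, and at 12 to 16.6 TPM in the liver libraries, above Slc7a6 itself, which was at 2.96 TPM at most. It was no DEG in any of the comparisons. The study states an alignment that uses read orientation, but the strand setting of the counts is not given in the sources used here, so reads of the 2 genes may not be separated.

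Genes around the carriers were taken from 3 lists, which were chosen with earlier results of these data known. Of 17 companions (peptidases of the brush border, partners and the sodium pump), 16 were tested in duodenum and 10 in liver, and by limma none was a DEG in either, with 1 and 2 genes at an unadjusted p under 0.05. Among those with the smallest p in duodenum were Enpep, a brush border peptidase, with a log2 fold change of 0.56 (adjusted p = 0.379, limma) and Atp1b1, a subunit of the sodium pump, with -0.24. In liver the smallest p belonged to Slc16a10, a carrier of aromatic amino acids, with 0.57 (adjusted p = 0.0888), then to Atp1b1 with 1.03 and Pepd with 0.31.

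The amino acid response list holds 20 genes such as Atf4, Asns and Trib3, which are induced when amino acids are short. In duodenum 0 of 19 tested were DEGs and 4 had an unadjusted p under 0.05. The smallest p belonged to Eif4ebp1 (0.47, adjusted p = 0.0997, limma), Psph (-0.50) and Aldh18a1 (-0.66). In liver 2 of 17 rose, where 6.92% of all genes tested were DEGs in either direction. These were Ddit4, with a log2 fold change of 3.16 (SE 0.707, adjusted p = 0.0448), and Sesn2, with 0.77 (SE 0.134, adjusted p = 0.0224), and both encode inhibitors of mTORC1. A second identifier named Ddit3 was left out of these counts. In liver it was at 19, 18.6 and 22.5 TPM in Veh and at 130, 106 and 71 TPM in CORT, without overlap. The Ddit3 identifier that was counted had a log2 fold change of 0.40 and was not a DEG in liver. Atf4 itself (0.06), Asns (0.64) and Trib3 (-0.54) were not DEGs in liver. Of the 17 genes tested there, 11 had a log2 fold change above 0 and 6 below 0.

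Regulators of transporter genes or proteins formed the last list. In duodenum 0 of 11 were DEGs and 5 had an unadjusted p under 0.05, with the smallest p for Sgk1 (2.55, SE 0.509, adjusted p = 0.0596, limma), a glucocorticoid-induced kinase that acts on several carriers. Sgk3, a related kinase, had a log2 fold change of 0.55. In liver 4 of 9 rose, where 6.92% of all genes tested were DEGs in either direction. The 4 included Nedd4l (1.01, adjusted p = 0.0183, limma), a ubiquitin ligase that removes carriers from the membrane. Also among the 4 were Hnf4a (0.86, adjusted p = 0.0211), a transcription factor of liver and gut, and Sgk1 (1.18, adjusted p = 0.0388). No protein or transport was measured, so the levels here are of RNA only.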

How the data were processed

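The authors used SeqPrep and Sickle to trim, HISAT2 to align, StringTie to assemble and RSEM to quantify. The submitters' processing notes name GRCm39, and tool versions are not given in the sources used here. The authors deposited TPM for each gene in each separate library, in one table per tissue with the same 55416 genes. TPM sums lay between 983327 and 997319 per library, so depth is unknown. Precision comes from the spread of 3 replicates per group, which limma adjusts towards a trend over all genes. Groups and replicate numbers were taken from the labels. The labels call the replicates biological, and p-values set the differences between groups against this adjusted spread between samples.

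Log2(TPM + 1) values were fitted with limma 3.58.1 in R 4.3.3 (lmFit, eBayes with trend). Treatment was tested in 6 libraries per tissue, and the Veh tissue comparison and the treatment by tissue difference in all 12 libraries with 4 group means. All adjusted p-values are limma's, adjusted by the Benjamini-Hochberg method over all genes tested. A count model, as the authors used, could not be run on TPM. Genes were named by a rule: Slc15a1, Slc7a9 and Slc6a19, all DEGs under CORT, the largest fold changes up to 12 per treatment comparison, the 8 largest Veh differences in each direction, DEGs of the tissue difference, the highest gene of any class left without a name, and of 3 lists the DEGs or the 3 smallest p. Genes outside this rule are named as background or after their values were seen. Some genes that the rule picks are not reported here. Of 2 identifiers named Ddit3, only 1 was used in the list counts, and the liver values of the other are given above. The members and lists were chosen with earlier results of these data known.

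On simulated data with 200 genes changed by 2 on the log2 scale, the fit recovered 184 of 200 among 13607 duodenum genes and 185 of 200 among 11699 liver genes. It recovered 194 of 200 in the Veh tissue comparison and 173 of 200 for the difference, both among 14806 genes. Among unchanged genes it called 5 in duodenum, 8 in liver, 12 in the Veh tissue comparison and 14 for the difference. The changed genes were drawn only from those above a set mean level, and no smaller change was tried. Recovery of low genes or of changes under 2 is therefore unknown. Alternatives were a pseudocount of 0.1, no filter, median-ratio scaling, the replicate number as a block, each library left out, other thresholds, and, in duodenum, removal of or adjustment for acinar genes. A 12-library fit of each treatment comparison was added after seeing the data.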

Additional observations from a re-analysis of the deposited data

Results flagged for a closer look

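The response to CORT differed between tissues in 5 genes by the interaction test of the 12-library limma fit (liver log2 fold change minus duodenum log2 fold change). The difference was -1.90 for Slc6a6, which rose in duodenum and fell in liver, and 1.99 for Slc43a2, whose single-tissue responses were not DEGs. It was 1.64 for Slc6a9, which rose in liver. It was -1.77 for Slc6a3 and 1.01 for Slc1a1, where liver values were 0 to 0.03 TPM and the difference restates the response of duodenum. Groups of 3 libraries are too small for the test of single outlying samples.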

How the results depend on the processing

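With 3 libraries per group, calls near the threshold moved easily. In duodenum the 3 DEGs became 0 without the filter on low values, with the replicate block, with the acinar level as covariate and with Veh2 and Veh3 both left out, 0 to 1 with any single library left out (1 without Veh1 or CORT3), and 9 at an unadjusted p under 0.05. The count stayed at 3 with a pseudocount of 0.1, with median-ratio scaling and with acinar genes removed. It was also 3 in the 12-library fit, with Slc6a20a in place of Slc6a6. In liver the 3 DEGs became 1 without the filter and with the replicate block (Slc6a9 both times), 1 to 2 with any single library left out (2 without Veh2), 6 with median-ratio scaling and 7 at an unadjusted p. Between the Veh tissues, 39 DEGs became 24 at a fold change over 4 and stayed between 37 and 39 with single libraries left out. For the treatment by tissue difference, 5 became 3 with a pseudocount of 0.1 and without the filter, 2 to 7 with single libraries left out (2 without liver CORT2, 3 without duodenum CORT1 or liver CORT1, CORT3, Veh1 or Veh3), and 8 at an unadjusted p. The causes were not tested. Without the filter both the genes fitted and the number adjusted for changed, and the 2 were not separated.

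Log2 fold changes turned sign in 4 cases, all in duodenum genes that were not DEGs: Slc1a2 to 0.27 with the acinar covariate, Slc15a4 to -0.32 without CORT2 (range with single libraries left out -0.32 to 1.26), and Slc6a19 to 0.04 without Veh1 and to 0.11 without CORT2 (range -0.31 to 0.11). The other single-gene values kept their sign. Correlations of deviations of same-numbered libraries lay between -0.12 and 0.0795. These values cannot decide whether same-numbered duodenum and liver libraries came from the same mouse, since tissues of one mouse need not share such deviations. The sources used here do not state whether they did. The main fits across both tissues treated all libraries as independent. The replicate block left 39 DEGs between the Veh tissues and 4 for the difference. Depth, unknown for TPM, limits what can be said of genes near 0.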
